A study of Homo sapiens with 6 samples.

Results

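The HOX cluster genes are the homeobox genes of the HOXA, HOXB, HOXC and HOXD clusters together with the antisense and long noncoding RNA genes that lie among them. They were taken from the gene count table by name, as every gene called HOXA, HOXB, HOXC or HOXD with a number, every HOX antisense gene, and HOTAIR, HOTAIRM1 and HOTTIP. This gave 53 of the 21494 genes in the table, 38 protein-coding and 15 noncoding. The HOXA cluster on chromosome 7 held 11 coding and 6 noncoding members, HOXB on chromosome 17 held 9 and 3, HOXC on chromosome 12 held 9 and 5, and HOXD on chromosome 2 held 9 and 1. HOXB1 and HOXB-AS4, which the annotation also places in the HOXB cluster, were not analysed here.

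RNA-seq was performed on human cells labelled G361, a melanoma cell line, that carried either a control short hairpin RNA (Control sh, 3 samples) or a hairpin against VprBP (VprBP sh, 3 samples). VprBP is the product of the DCAF1 gene, a substrate receptor of a ubiquitin ligase that the study examines as a histone H2A kinase. The study made stable knockdown cells with a single lentiviral hairpin sequence, and the comparison addressed here is which HOX genes differ in RNA level between the 2 groups. The labels number the samples 1 to 3 in each group but do not say that they came from separate cultures, so the p-values measure only the spread between these samples.

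Several features of the whole table bear on every HOX value. Library totals ran from 18195949 to 26883948 counts. DCAF1 itself had 688, 893 and 884 counts in Control sh against 681, 488 and 628 in VprBP sh, a log2 difference of -0.58 (SE 0.17, edgeR quasi-likelihood test, adjusted p = 0.0125), below the 2-fold threshold used for a call. Of 16756 genes tested, 46.4% were called different between the groups. Replicate 1 of each group stood apart, with a chi-square per degree of freedom of 16.1 to 26.6 against its 2 partners and of 2.32 to 2.45 between the other 2. The labels give G361 as the cell line but LD611 as the source. Of 8 melanocyte markers, 4 were in the table and summed to 8.46 to 9.85 CPM (counts-per-million of the library total) in Control sh against 11.9 to 15.2 in VprBP sh, and the defining genes TYR, DCT, SOX10 and S100B were not in it. Of 10 urothelial markers, 8 were in the table and summed to 4328 to 4824 CPM in Control sh against 1235 to 1394 in VprBP sh, where UPK1B was at 0. The single markers went both ways, and of 7 tested 4 were called lower and 2, GATA3 and PPARG, higher. GATA3 had 7, 1 and 0 counts in Control sh against 1580, 1334 and 1873 in VprBP sh. The 3 endothelial markers summed to 25.7 to 29.1 CPM in Control sh against 1.42 to 1.90 in VprBP sh, and the 2 macrophage markers in the table to 28.7 to 45.0 CPM against 2.28 to 4.51. Of these 2, CD68 was called lower and CSF1R higher. Of the 3 endothelial markers, CDH5 and VWF were called lower and PECAM1 was not called (log2 difference 0.20, SE 0.39). The 4 fibroblast markers in the table summed to 32.1 to 33.6 CPM against 22.5 to 29.4, with LUM at 0 in VprBP sh, and the 4 epithelial markers to 1814 to 2014 CPM against 3237 to 3436. Among the epithelial markers only KRT8 was called, as higher, while CDH1 was lower (log2 difference -0.63) without reaching 2-fold. No T cell marker and 1 of 3 B cell markers were in the table. Mitochondrial genes took 1.96% to 1.98% of counts in Control sh against 4.10% to 4.48% in VprBP sh. These differences moved with the groups as the HOX genes did, and their part in the HOX results was not tested.

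HOX genes encode transcription factors that bind DNA through a homeodomain and specify position along the body axis. They lie in 4 clusters that arose by duplication, and genes of like position in different clusters form paralogue groups numbered from 1 at the anterior end to 13 at the posterior end. Adult cells keep a pattern of active and silent HOX genes that reflects where in the body they arose. The pattern is held by Polycomb proteins, which keep HOX chromatin silent, and by Trithorax proteins such as the KMT2A methyltransferase, which keep it active.

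The HOX pattern differed between Control sh and VprBP sh in a way that followed the clusters. Every HOXD gene detected in Control sh had 0 counts in VprBP sh. HOXC9 to HOXC12 and the long noncoding RNA HOTAIR rose. HOXB and HOXA each changed in some genes and not in others. Of the 53 members, 46 passed the filter on low counts, which needs about 10 counts in at least 3 samples, and 34 of these were called at an adjusted p under 0.05 with more than a 2-fold change. VprBP sh was higher for 12 and lower for 22. Over all genes tested 24.5% were called higher and 22.0% lower. Members below about 10 counts in 1 group passed the filter through the other group alone. For 40 of the 46 the 2 groups did not overlap in normalized counts, against 79.5% of all genes tested. Among the 36 coding genes tested, 27 were called, 8 higher and 19 lower, and the median log2 difference was -1.0, against 0.08 over all genes tested. With replicates 2 and 3 of each group summed, so that a group had 2 samples, 38 coding genes were tested and 27 called, 7 higher and 20 lower, and 25 of these were among the 27 called with 3 samples a group.

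**Figure D1:**
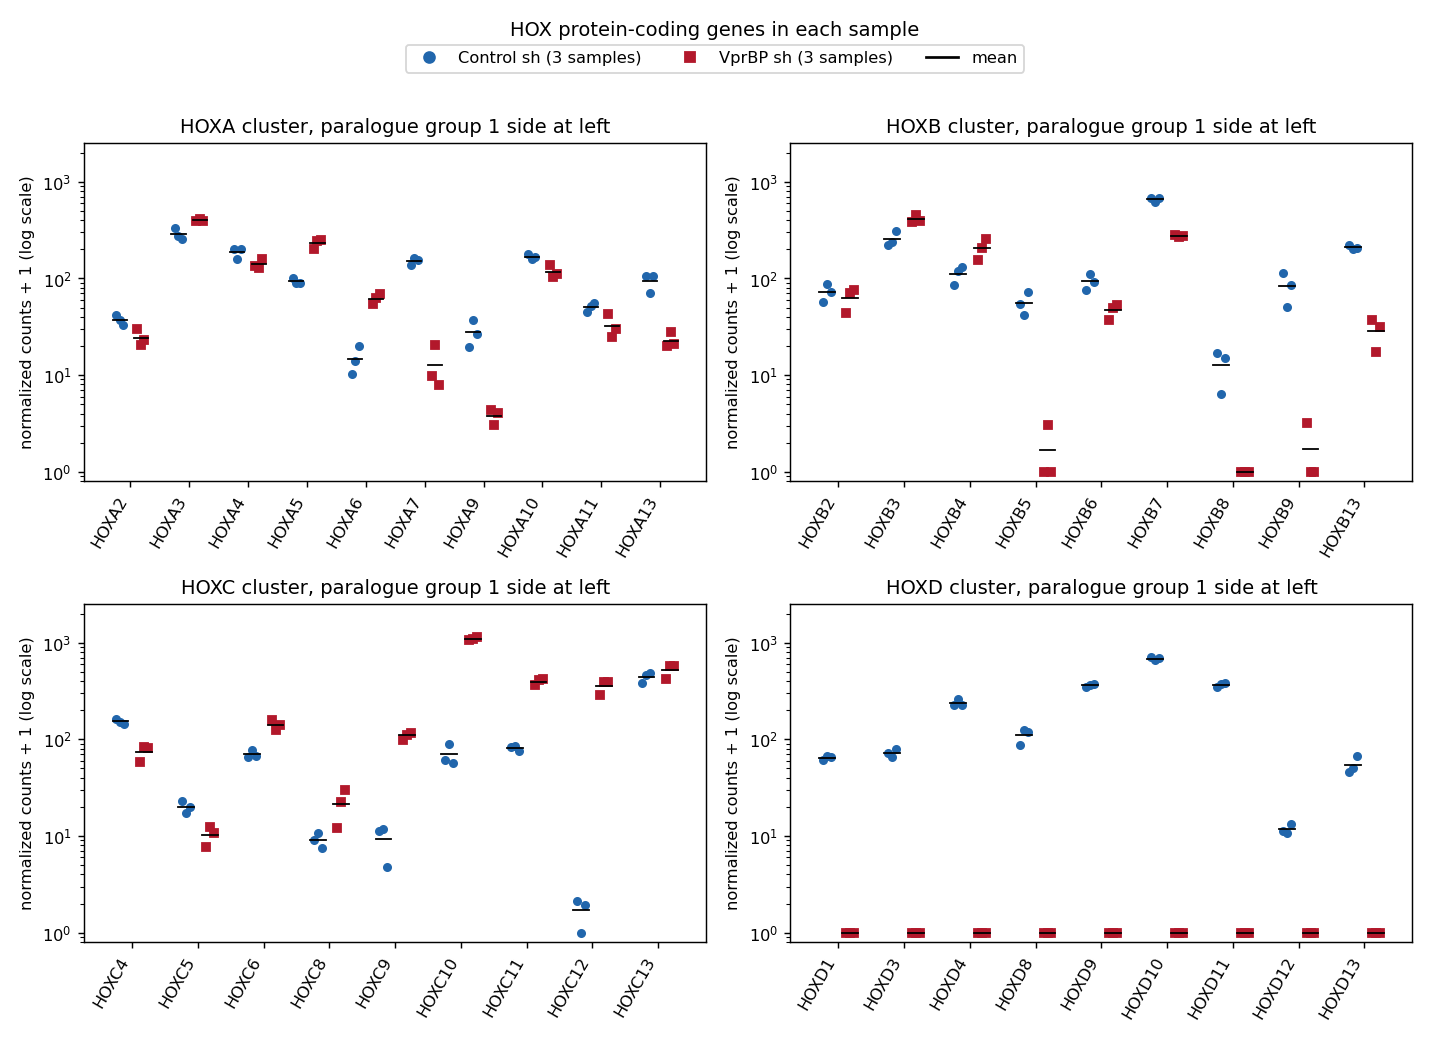
Normalized counts plus 1, on a log scale, of HOX protein-coding genes in each sample, by cluster and with the paralogue group 1 side at the left; circles are Control sh, squares VprBP sh and bars the group means. The HOXD squares all lie at the bottom, at 0 counts, while HOXC9 to HOXC12 lie well above their Control sh circles.

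Promoter sequence was looked at first for HOXD, since the whole cluster moved together. RefSeq start sites (GRCh38.p14) gave a window of 250 bases before to 50 bases after the start for 27 of the 53 members. HOXD9, HOXA5, HOXC10, HOXC12 and HOTAIR were among those without one. The 200 bases before the start are shown 5′ to 3′ on the strand of the gene for the 3 HOXD genes with the highest Control sh counts among those with a window free of annotated exons, and for 2 HOXA genes that were called in opposite directions, HOXA6 (higher) and HOXA9 (lower). The positions are chr2:176116578-176116777 for HOXD10, chr2:176107080-176107279 for HOXD11 and chr2:176151350-176151549 for HOXD4, all on the plus strand, and chr7:27147775-27147974 for HOXA6 and chr7:27165538-27165737 for HOXA9 on the minus strand. No window touched an annotated exon (GENCODE 44). The HOXD10, HOXD11, HOXA6 and HOXA9 windows lie within introns of longer transcripts of their own genes, the HOXD4 window lies within an intron of HOXD3, and HOXA3 and HOXA-AS3 also span the HOXA6 window. Capitals mark motifs found on either strand. The TATA box was searched as TATAAA and the CCAAT box by its letters. The GC box was searched as GGGCGG. A motif bound by HOX and PBX proteins together was searched as TGATNNAT. The E-box was searched as CACGTG. None of the marked motifs overlap.
HOXD10: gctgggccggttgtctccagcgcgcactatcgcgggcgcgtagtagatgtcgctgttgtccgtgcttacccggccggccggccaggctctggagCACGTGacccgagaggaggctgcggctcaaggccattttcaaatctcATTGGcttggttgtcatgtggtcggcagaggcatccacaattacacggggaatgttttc
HOXD11: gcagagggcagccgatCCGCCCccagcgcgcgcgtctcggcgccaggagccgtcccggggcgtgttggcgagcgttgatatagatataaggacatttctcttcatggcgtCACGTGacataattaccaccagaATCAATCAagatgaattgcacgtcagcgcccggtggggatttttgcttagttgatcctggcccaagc
HOXD4: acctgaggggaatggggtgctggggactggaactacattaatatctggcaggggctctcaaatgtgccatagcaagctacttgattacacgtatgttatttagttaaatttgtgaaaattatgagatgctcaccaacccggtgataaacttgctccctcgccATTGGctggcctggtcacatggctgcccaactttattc
HOXA6: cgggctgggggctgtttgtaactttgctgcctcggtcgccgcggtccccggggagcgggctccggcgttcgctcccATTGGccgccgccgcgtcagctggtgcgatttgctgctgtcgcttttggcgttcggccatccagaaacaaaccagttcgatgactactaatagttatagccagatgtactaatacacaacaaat
HOXA9: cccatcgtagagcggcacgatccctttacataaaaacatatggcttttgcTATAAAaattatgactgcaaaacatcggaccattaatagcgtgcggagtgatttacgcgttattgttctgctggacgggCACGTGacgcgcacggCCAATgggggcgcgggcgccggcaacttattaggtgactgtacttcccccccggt
The E-box of HOXD10 lay 106 to 101 bases before the start, that of HOXD11 90 to 85 bases before it and that of HOXA9 71 to 66 bases before it. Over the full windows of 300 bases, the E-box was present in 5 of 8 HOXD genes (HOXD1, HOXD3, HOXD10, HOXD11 and HOXD13), against 7.26% of 35116 RefSeq promoters. A CCAAT box was in 6 of 8, against 34.6%, and a GC box in 5 of 8, against 45.0%. These motifs were not particular to HOXD. The 16 windows of HOXA coding genes, where a gene can have several, held an E-box in 4, a CCAAT box in 9 and a GC box in 8. HOXD4, which fell with the others, had no E-box in the bases shown, and HOXA9 had one. The ratio of observed to expected CpG had a median of 0.869 in the HOXD windows, of 0.814 in the HOXA coding windows and of 0.579 in all promoters. These matches describe the sequence only, and no factor binding was measured in these data.

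HOXD was the cluster with the highest summed level in Control sh and had no counts at all in VprBP sh. HOXD10, a posterior gene known for its role in the hindlimb, had 614, 609 and 742 counts in the 3 Control sh samples and 0, 0 and 0 in VprBP sh. With no counts to set against, a fold change is only a bound, and against a floor of 3 counts in each VprBP sh library HOXD10 was at least 237-fold lower (chr2:176108790-176119937, adjusted p = 3.00e-08 by edgeR's quasi-likelihood test). HOXD11, which acts with HOXA11 in forming the forearm, had 300, 344 and 407 counts against 0 in each VprBP sh sample, at least 126-fold lower. HOXD9 likewise had 306, 343 and 397 counts against 0 in each, also at least 126-fold lower. These 3 genes made up most of the posterior HOXD signal. The groups were wholly separate for each of them, as they were for 79.5% of all genes tested.

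The rest of HOXD followed at lower levels. HOXD4, a central gene, had 199, 241 and 242 counts in Control sh against none in VprBP sh, a bound of 82.4-fold. HOXD8 had 75, 114 and 126 counts against none (at least 37.7-fold lower). HOXD3 had 62, 60 and 83 counts against none (at least 24.6-fold lower). HOXD1, at the anterior end of the cluster, had 52, 62 and 69 counts against none, at least 22.0-fold lower. HOXD13, at the other end and best known for digit formation, had 39, 46 and 70 counts against none, at least 18.4-fold lower. HOXD12 had 9, 9 and 13 counts in Control sh against none in VprBP sh, too few to pass the filter, and the bound was 3.71-fold. HOXD-AS2, a noncoding gene on the opposite strand, had 71, 99 and 126 counts against none, at least 35.3-fold lower. All 8 coding HOXD genes tested were called lower, with adjusted p-values from 3.00e-08 to 1.43e-05. A count of 0 in every VprBP sh sample was seen in 3.63% of all genes tested and in each of the 8 coding HOXD genes tested. HOXD12, not tested, was at 0 as well. The 8 passed the filter through their Control sh counts alone, so their calls rest on these same zeros. A count of 0 at this depth allows up to 0.112 to 0.165 CPM per gene in the VprBP sh libraries. In bulk RNA, fewer cells that express a gene and less RNA per cell cannot be told apart.

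The coding genes on both sides of HOXD were well covered in both groups. LNPK, the coding gene beyond HOXD13 and EVX2, had 798, 786 and 894 counts in Control sh against 796, 819 and 1081 in VprBP sh, a log2 difference of -0.03 (SE 0.09, adjusted p = 0.755). MTX2, the coding gene beyond HOXD1, had 760, 860 and 1029 counts against 756, 757 and 949, a log2 difference of -0.24 (SE 0.10, adjusted p = 0.0447). Between LNPK and MTX2, over 266.555 kb, the table held 14 genes, and 13 of them had 0 counts in every VprBP sh sample. These included HAGLR, a long noncoding RNA transcribed from beside HOXD1, with 250, 223 and 305 counts in Control sh. HAGLROS, its antisense partner, had 80, 112 and 119. EVX2, a homeobox gene next to HOXD13, had 0, 9 and 2. The single exception was a processed pseudogene, ENSG00000218175, with 51, 71 and 75 counts in Control sh against 13, 15 and 62 in VprBP sh. Its log2 difference was -1.36 (adjusted p = 0.0146). Beyond MTX2, LINC01116 had 50, 87 and 54 counts in Control sh and LINC01117 had 6, 4 and 6, and both were at 0 in VprBP sh. The pseudogene and these 2 noncoding genes were named after their values were seen.

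**Figure D2:**
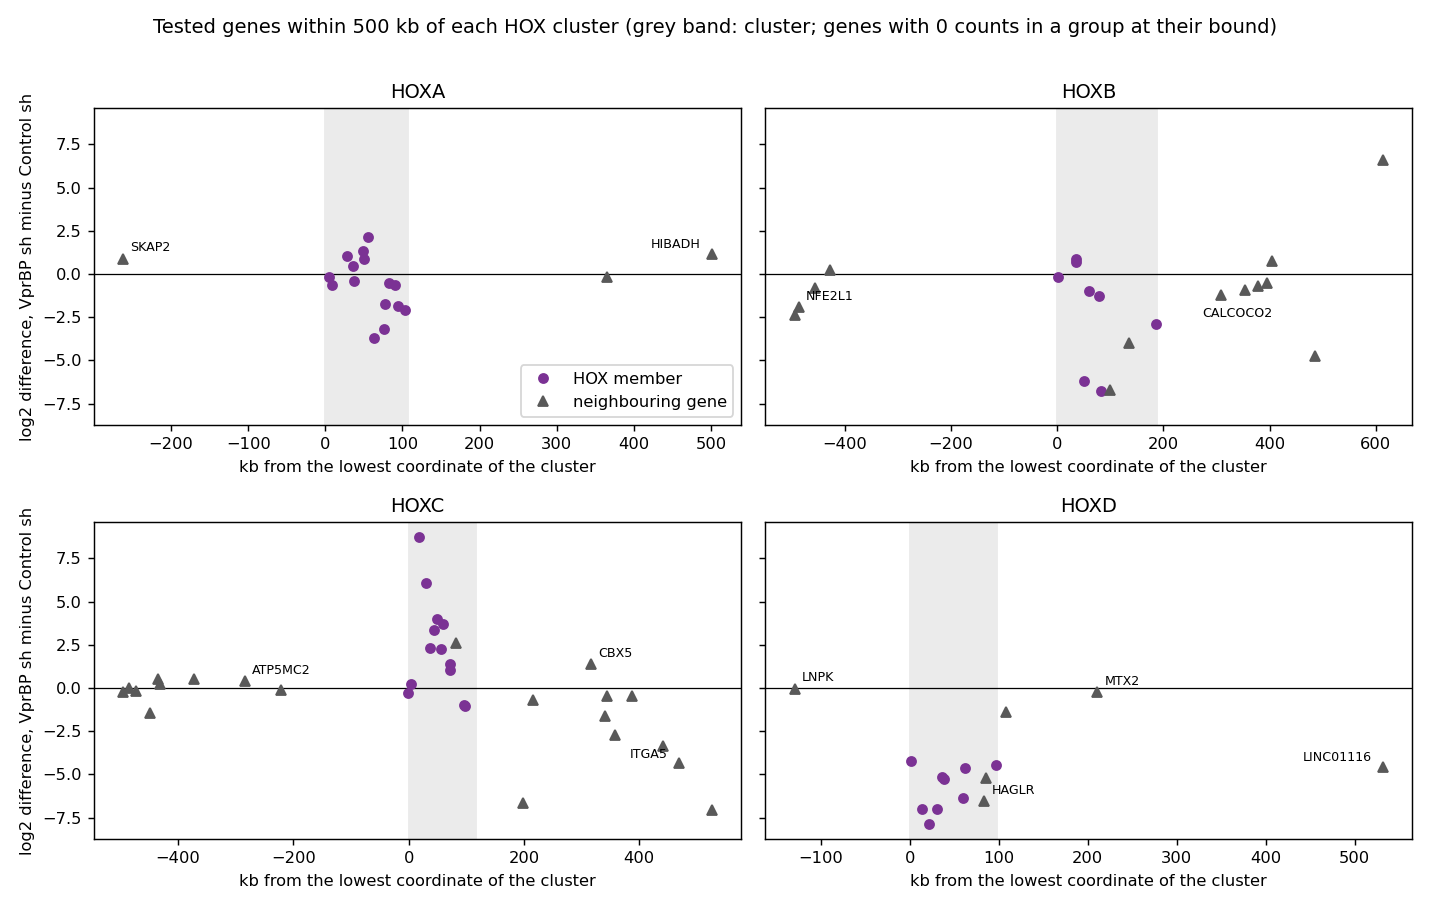
Log2 difference (VprBP sh minus Control sh) of tested HOX members (circles) and other tested genes within 500 kb (triangles), against the distance of each gene's midpoint from the lowest coordinate of its cluster in kb; the grey band is the cluster, and genes with 0 counts in a group are drawn at their bound. HOXD members lie at -4 or below while LNPK and MTX2 lie near 0, and the HOXC members are spread from near 9 down to -1 along the cluster.

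HOXC moved the other way, and by position. All 9 coding genes were tested, 6 were called higher in VprBP sh, 2 were called lower and HOXC13 was not called. That is 88.9% called, against 46.4% of all genes tested. HOXC10, a posterior gene, had 53, 83 and 60 counts in Control sh against 977, 1054 and 1511 in VprBP sh, 16.0-fold higher by the group means (log2 difference 4.01, SE 0.17, adjusted p = 3.13e-08; chr12:53985065-53990279). HOXC12 went from 1, 0 and 1 counts to 258, 378 and 511. With 2 counts in all of Control sh, its ratio of 515 had a 95% counting interval of 142 to 4254. HOXC11 had 71, 79 and 79 counts against 328, 399 and 549, 4.94-fold higher (log2 difference 2.31, SE 0.14). HOXC9 had 9, 10 and 4 counts against 89, 108 and 154, 13.1-fold higher (log2 difference 3.73, SE 0.33). In each of these 4 adjoining posterior genes the lowest VprBP sh sample was above the highest Control sh sample. The groups did not overlap for 79.5% of all genes tested either. HOXC9 and HOXC12 passed the filter through their VprBP sh counts alone, so their calls rest on the group where they were high.

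The differences were smaller towards the anterior side. HOXC8 had 7, 9 and 7 counts against 10, 21 and 38, a log2 difference of 1.36 (SE 0.43, adjusted p = 0.0164). HOXC6 had 56, 71 and 71 against 142, 122 and 184, a log2 difference of 1.02 (SE 0.18). HOXC5 and HOXC4, at the anterior end, were lower in VprBP sh. HOXC5 had 19, 15 and 20 counts against 6, 11 and 13 (log2 difference -1.0, SE 0.35) and HOXC4 had 141, 140 and 154 against 52, 80 and 106 (log2 difference -1.04, SE 0.19). All but HOXC8 lay close to the 2-fold threshold, and each of these 4 lost its call when 1 library was left out. HOXC8 missed the threshold on p without Control sh replicate 3 (log2 difference 1.22) or VprBP sh replicate 3 (1.01). HOXC6 fell short of 2-fold without Control sh replicate 1 (0.97), Control sh replicate 3 (0.99) or VprBP sh replicate 1 (0.94). HOXC4 did so without VprBP sh replicate 1 (-0.91). HOXC5 lost its call without replicate 1 of Control sh (-0.90) or of VprBP sh (-0.84), and without replicate 3 of Control sh (-1.01) or of VprBP sh (-1.06). HOXC13, at the posterior end and known for its role in hair and nail, was high in both groups, with 335, 434 and 513 counts in Control sh against 383, 558 and 764 in VprBP sh. Its log2 difference of 0.24 (SE 0.15, adjusted p = 0.165) did not pass the test. Calls of a higher level thus ran without a gap from HOXC12 to HOXC6, and the sign turned between HOXC6 and HOXC5. Exons overlap on the same strand between HOXC6, HOXC9 and HOXC4, and 67.3% of the exon length of HOXC5 lies under other genes on its strand, so the counts of these genes may share reads.

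Of the 5 noncoding genes of HOXC, 4 were tested and 3 called higher, where 24.5% of all genes tested were called higher. HOTAIR lies between HOXC12 and HOXC11 on the opposite strand (chr12:53962308-53974956) and is known for its binding to Polycomb proteins. It had 11, 9 and 5 counts in Control sh against 545, 587 and 822 in VprBP sh, 67.8-fold higher by the group means (log2 difference 6.10, SE 0.22, adjusted p = 1.38e-08). The 3 VprBP sh samples lay close together once normalized, at a mean of 610 ± 12 (SD, n = 3), against 9.0 ± 4.01 in Control sh. HOXC-AS3, which overlaps the start of HOXC10, had 1, 5 and 2 counts against 30, 29 and 35 (log2 difference 3.35, SE 0.47). HOXC-AS2 had 3, 4 and 10 against 30, 24 and 38 (log2 difference 2.27, SE 0.41). HOTAIR, HOXC-AS3 and HOXC-AS2 passed the filter through their VprBP sh counts alone, so their calls rest on the group where they were high. HOXC-AS1 had no counts in Control sh against 8, 3 and 7 in VprBP sh, too few to be tested. HOXC13-AS, beside HOXC13, had 53, 93 and 107 counts against 51, 72 and 109, and its log2 difference of -0.29 (SE 0.25, adjusted p = 0.32) did not pass the test. The noncoding genes called higher thus lay beside coding genes that were called higher.

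HOTAIR is known as a HOXC transcript that can direct Polycomb silencing to the HOXD cluster. In these samples HOTAIR and the coding HOXD genes took opposite levels in every library. No correlation was computed over these 2 groups of 3 samples, and a link between the 2 measures was not tested.

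**Figure D3:**
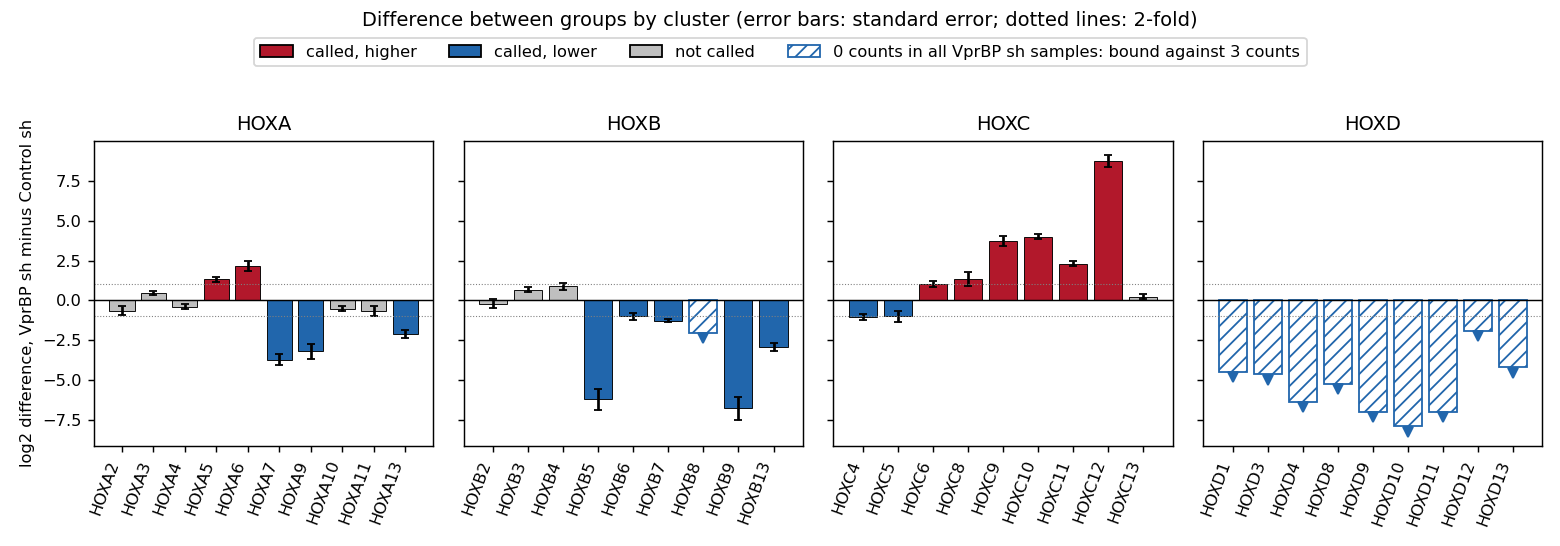
Log2 difference (VprBP sh minus Control sh) of HOX coding genes by cluster with its standard error; filled bars are called higher or lower, grey bars are not called, and hatched bars with arrowheads are bounds for genes with 0 counts in every VprBP sh sample. HOXB5, HOXB9 and HOXC12, with 2 counts in all of the lower group, are drawn at the fitted value.

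HOXB was split along its length. HOXB7, the HOX gene with the highest level per length in Control sh, had 599, 571 and 716 counts there and 252, 260 and 362 in VprBP sh, 2.41-fold lower (log2 difference -1.27, SE 0.10, adjusted p = 2.91e-06). HOXB5 had 47, 38 and 76 counts against 0, 2 and 0, a ratio of 89.7 with a 95% counting interval of 24.4 to 747. HOXB9 had 99, 46 and 91 against 2, 0 and 0, a ratio of 132 with an interval of 36.0 to 1092. HOXB8, between HOXB7 and HOXB9, had 14, 5 and 15 counts against none, too few to be tested, and its bound was 4.09-fold. HOXB5, HOXB8 and HOXB9 were thus close to absent in VprBP sh while HOXB6 and HOXB7, which lie among them, remained. Of the exon length of HOXB6, 16.6% overlaps HOXB3 on the same strand, so the counts of HOXB6 and HOXB3 may share reads.

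HOXB13, a posterior gene set apart from the others by a long gap and known for its role in the prostate, had 191, 188 and 221 counts in Control sh against 33, 16 and 40 in VprBP sh, 7.55-fold lower (log2 difference -2.91, SE 0.25). HOXB6 had 66, 102 and 97 against 33, 47 and 69, a log2 difference of -1.0 (SE 0.24) at the edge of the 2-fold threshold, which became -0.86 without Control sh replicate 2 and -0.87 without VprBP sh replicate 1. On the anterior side no gene was called. HOXB4, known for its role in blood stem cells, had 73, 110 and 139 counts against 139, 201 and 333 (log2 difference 0.88, SE 0.23, adjusted p = 0.00575). HOXB3 had 195, 219 and 327 against 345, 442 and 516 (log2 difference 0.68, SE 0.15, adjusted p = 0.00234). Both passed the threshold on p without reaching 2-fold, though HOXB4 reached it without Control sh replicate 3 (1.02) or VprBP sh replicate 1 (1.05). HOXB2 had 49, 81 and 77 against 39, 68 and 98, with overlapping groups and a log2 difference of -0.19 (SE 0.27, adjusted p = 0.53), whose sign turned when library size alone was used for scaling and without VprBP sh replicate 1 (0.00355). Of the 8 HOXB coding genes tested, 5 were called lower and none higher, where 22.0% of all genes tested were called lower and 24.5% higher.

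In HOXB, too, other transcripts were at or near 0 in VprBP sh. ENSG00000272763, a long noncoding RNA inside the cluster, had 254, 288 and 347 counts in Control sh against none in VprBP sh, at least 107-fold lower. LINC02086, also a long noncoding RNA, had 40, 36 and 54 counts against none. PRAC2, a protein-coding gene beside HOXB13, had 5, 9 and 8 against 0, 0 and 1. These 3 were named after their values were seen. The HOXB antisense genes were at few counts throughout. HOXB-AS1 had 2, 4 and 2 counts in Control sh against 5, 9 and 31 in VprBP sh. HOXB-AS3 had 1, 4 and 5 against none. HOXB-AS2 had 2, 0 and 2 against 2, 3 and 4. None of these 3 passed the filter.

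HOXA was the cluster whose summed level changed least, yet single genes within it moved in opposite directions. HOXA5 and HOXA6, 2 neighbouring central genes, were called higher in VprBP sh. HOXA5 had 87, 82 and 94 counts against 181, 236 and 332, 2.51-fold higher (log2 difference 1.33, SE 0.16). HOXA6 had 8, 12 and 20 against 48, 60 and 90, 4.48-fold higher (log2 difference 2.14, SE 0.31). HOXA7, the next gene, moved the other way, with 118, 151 and 164 counts against 8, 19 and 9, 12.8-fold lower (log2 difference -3.71, SE 0.33, adjusted p = 5.11e-06). HOXA9, often active in leukaemia, had 16, 34 and 27 counts against 3, 2 and 4, 9.55-fold lower (log2 difference -3.20, SE 0.45). A sign change thus fell between HOXA6 and HOXA7, which are neighbours on chromosome 7. Of the exon length of HOXA7, 62.5% overlaps HOXA-AS3 on the opposite strand, and of that of HOXA6, which had few counts in Control sh, 39.3% does.

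Elsewhere in HOXA the differences were mixed. HOXA13, the most posterior gene, had 92, 65 and 111 counts against 17, 26 and 26, 4.29-fold lower (log2 difference -2.10, SE 0.27). HOXA3 had 290, 255 and 273 counts against 353, 397 and 520, a log2 difference of 0.47 (SE 0.13, adjusted p = 0.00768). HOXA10, which acts in the uterus, had 156, 146 and 175 against 123, 99 and 145, a log2 difference of -0.53 (SE 0.17, adjusted p = 0.0162). Both fell short of 2-fold. HOXA2, HOXA4 and HOXA11 had log2 differences of -0.64, -0.40 and -0.66 and adjusted p-values of 0.0612, 0.052 and 0.0557. Of the 11 HOXA coding genes, 2 were called higher, 4 lower and 5 not at all. That is 54.5% called, near the 46.4% of all genes tested.

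The antisense genes of HOXA were of 3 kinds. HOXA-AS2, which lies across HOXA3 and HOXA4, had 116, 118 and 137 counts against 185, 263 and 424 (log2 difference 1.04, SE 0.18), and was not called without VprBP sh replicate 3 (0.87). HOXA-AS3, which lies across HOXA5 to HOXA7, had 17, 26 and 31 against 21, 52 and 81, with overlapping groups (log2 difference 0.86, SE 0.38, adjusted p = 0.0633), and was called without VprBP sh replicate 1 (1.16). HOXA10-AS had 70, 58 and 66 counts against 15, 17 and 35 (log2 difference -1.72, SE 0.28). HOXA11-AS had 21, 36 and 51 against 15, 3 and 14 (log2 difference -1.87, SE 0.49, adjusted p = 0.00605). HOTAIRM1, a myeloid-associated transcript of this cluster, had 230, 187 and 260 against 238, 180 and 257, with a log2 difference of -0.14 (SE 0.18, adjusted p = 0.472) whose sign turned under scaling by library size alone. HOTTIP, at the HOXA13 end, had 4, 3 and 3 counts against 0, 0 and 2, a ratio of 5.57 with a 95% counting interval of 1.19 to 52.3. Strand use in counting is not given in the sources used here, so reads of a coding gene and its antisense partner cannot be told apart.

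**Figure D4:**
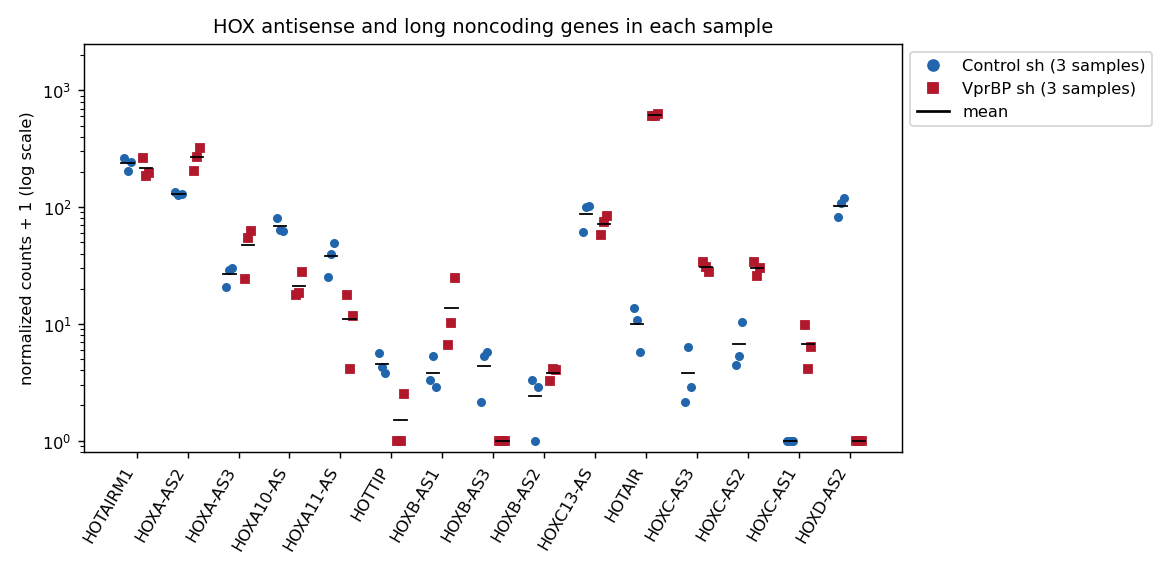
Normalized counts plus 1, on a log scale, of the 15 HOX antisense and long noncoding genes in each sample; circles are Control sh, squares VprBP sh and bars the group means. HOTAIR has a mean of 9.0 in Control sh against 610 in VprBP sh, and HOXD-AS2 lies at 0 counts in VprBP sh.

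Summed over all 38 coding genes, HOX counts were 248 ± 7.78 CPM in Control sh against 245 ± 15.1 CPM in VprBP sh (SD, n = 3 each), and the ranges overlapped. The clusters that made up this sum differed. HOXD gave 83.6 ± 3.35 CPM in Control sh, 33.6% of all HOX coding counts, and 0 in VprBP sh. HOXC gave 36.3 ± 2.69 CPM, or 14.6%, in Control sh against 135 ± 10.1 CPM, or 55.0%, in VprBP sh. HOXB gave 66 ± 4.32 CPM, or 26.5%, against 50.5 ± 3.65 CPM, or 20.6%. HOXA gave 62.6 ± 1.62 CPM, or 25.2%, against 59.5 ± 1.48 CPM, or 24.3%. In CPM the 2 groups did not overlap for any of the clusters, though for HOXA the lowest Control sh sample, at 60.87, and the highest VprBP sh sample, at 60.85, nearly met. These sums were scaled by library size and were not tested, and the near-equal total holds for that scaling only. Under the upper quartile factors used for the calls, the total was lower in VprBP sh than in Control sh. The log2 differences of the cluster sums were then -0.29 for HOXA, -0.60 for HOXB and 1.68 for HOXC.

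**Figure D5:**
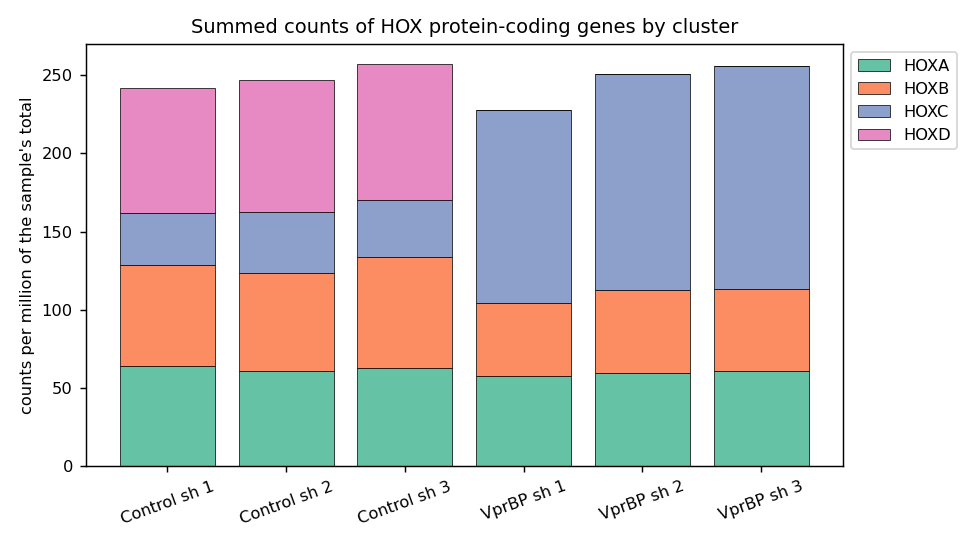
Summed CPM of the HOX protein-coding genes in each sample, stacked by cluster, with the y axis starting at 0. The bars reach 228 to 257 CPM over the 6 samples, while the HOXD part is missing and the HOXC part is larger in the 3 VprBP sh samples.

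By position, the sums changed less than those of HOXC and HOXD did. Anterior genes (paralogue groups 1 to 3) made up 19.8% of HOX coding counts in Control sh against 21.4% in VprBP sh, central genes (4 to 8) 33.7% and 24.4%, and posterior genes (9 to 13) 46.5% and 54.2%. Within a paralogue group the cluster that supplied the RNA could change. Paralogue group 10 had 39.2 ± 0.568 CPM in Control sh, mostly from HOXD10 and HOXA10, and 60.2 ± 1.57 CPM in VprBP sh, mostly from HOXC10. Paralogue group 11, scaled by library size, had 21.1 ± 1.18 CPM in Control sh and 21.1 ± 0.896 CPM in VprBP sh. Its highest member was HOXD11 in Control sh and HOXC11 in VprBP sh. Paralogue group 9 had 20.5 ± 0.513 CPM in Control sh against 5.54 ± 0.357 CPM in VprBP sh, where HOXC9 was its highest member. Paralogue group 12 went from 0.487 ± 0.0747 to 17.5 ± 2.84 CPM, nearly all HOXC12. Outside HOXD, 8 of 11 posterior genes tested were called (72.7%, against 46.4% of all genes tested), 4 higher, all in HOXC, and 4 lower, in HOXA and HOXB.

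Per length, the order of the HOX genes was not the same in the 2 groups. In RPKM (CPM divided by exon length in kilobases), HOXB7 was first in Control sh at 18.4 ± 0.976 and HOXD10 second at 11.7 ± 0.398. HOXD4 (8.94 ± 0.728), HOXD9 (8.30 ± 0.351), HOXC13 (8.04 ± 1.03) and HOXD11 (7.36 ± 0.465) followed, and neighbours in this group of 4 differed by less than the sum of their SDs. In VprBP sh HOXC10 was first at 23.0 ± 0.641, followed by HOXC13 at 11 ± 1.79 and HOXB7 at 8.88 ± 0.218. HOXA5 (6.64 ± 0.751), HOXC11 (5.99 ± 0.409) and HOXC12 (5.34 ± 0.869) came next, again with neighbours within their spread. HOXC10 had been the 23rd of 38 in Control sh, at 1.24 ± 0.327.

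HOX proteins bind DNA together with cofactors of the PBX and MEIS families. Of 9 cofactor genes listed, 8 were in the table, 7 were tested, 3 were called higher in VprBP sh and none lower. That is 42.9% of those tested, against 46.4% of all genes. PBX3 and MEIS1 had log2 differences of 1.04 (SE 0.21) and 1.05 (SE 0.17), and neither was called with TMM scaling, with DESeq2 or without Control sh replicate 2. The PBX3 call was also lost without VprBP sh replicate 1. The 4 tested and not called were PBX2, PBX4, MEIS2 and PKNOX1, with log2 differences of 0.17, 0.82, -0.50 and -0.08.

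Genes that set or read the HOX chromatin state were a further list. Of 36 regulators, 34 were in the table and 33 tested, with 7 called higher and 6 lower in VprBP sh, 39.4% of those tested against 46.4% of all genes. CBX2, a Polycomb protein that reads trimethylated H3K27, had 37, 36 and 45 counts in Control sh against 1150, 1799 and 2353 in VprBP sh (log2 difference 5.31, SE 0.19). CBX8, of the same family, had a log2 difference of 1.90 (SE 0.17). EZH2, the methyltransferase of Polycomb repressive complex 2, had 514, 612 and 656 counts against 2484, 1967 and 2751 (log2 difference 1.88, SE 0.13). SUZ12, a subunit of the same complex, had 2749, 3457 and 4063 against 1237, 1207 and 1503 (log2 difference -1.51, SE 0.10). RNF2, the ubiquitin ligase of Polycomb repressive complex 1, was lower as well (log2 difference -1.71, SE 0.10). Of the 33 tested, 20 were not called.

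Genes around the clusters were compared to see whether the HOX differences ended with the clusters. Of 27 flanking genes listed, 16 were in the table, 12 tested, 2 called higher and 4 lower, against 46.4% of all genes called. HIBADH, beyond HOXA13, was higher (log2 difference 1.17, SE 0.10) and CBX5, beyond HOXC4, was higher too (log2 difference 1.40, SE 0.10). CALCOCO2, on the HOXB13 side, was lower (log2 difference -1.22, SE 0.12), as were HAGLR and HAGLROS within HOXD. Taking every table gene within 500 kb of a cluster, a set chosen after the data were seen, 42 of 54 were tested, 4 were called higher and 17 lower, against 46.4% called of all genes. On the HOXC4 side, ITGA5 had 6759, 5216 and 5924 counts against 231, 326 and 442 (log2 difference -4.35, SE 0.17), and GTSF1 had 316, 351 and 419 against none. LINC02381, nearer to HOXC4, had 403, 329 and 382 against 3, 3 and 6 (log2 difference -6.66, SE 0.25). These 3 were named after their values were seen. On the HOXC13 side, ATP5MC2 and CALCOCO1 had log2 differences of 0.41 and -0.13. MAP3K12, further out on that side, had 179, 213 and 218 counts against 69, 69 and 117. It was called lower (log2 difference -1.43, SE 0.16), and it too was named after its values were seen.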

How the data were processed

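RNA-seq was analysed in 6 samples labelled G361, 3 Control sh and 3 VprBP sh. Per the labels the genome build was hg38 and Partek was used, and the study's methods name 50-base single-end reads, STAR and GENCODE 29. The labels name a SMARTER kit and the methods a KAPA stranded kit. The authors deposited estimated counts per gene, made from the aligned reads, of which 59.8% of values were whole numbers. How reads that match several genes, such as paralogues with like homeoboxes, were shared is not given in the sources used here.

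Members and gene lists were chosen with earlier results of these data known. Counts were rounded and tested over all genes with edgeR 4.0.16 (R 4.3.3). Upper quartile scaling (quantile 0.75) and the call thresholds, an adjusted p under 0.05 and more than 2-fold, follow the study, which tested with Partek's gene-specific method. The filterByExpr filter (minimum count 10) and edgeR's quasi-likelihood test with Benjamini-Hochberg adjustment over 16756 genes stand in its place. Normalized counts are counts divided by the upper quartile size factor. Standard errors are the log2 difference over the root of the F statistic. RPKM used exon lengths of GENCODE 44, whose coordinates matched all 53 members. Bounds use a floor of 3 counts per library. Intervals are exact 95% binomial ones on the split of counts and, like floors, cover counting error only. Named were all members, and from each list up to 6 called genes whose higher group averaged 100 or more normalized counts; others are marked as chosen later, and some named genes are not reported here. Alternatives were TMM, library size, DESeq2 1.42.0, limma-voom (limma 3.58.1), other filters, a 2-fold test, a replicate block, leaving out each sample, and summing replicates 2 and 3. On simulated counts with 192 of 16397 genes changed by 2 on the log2 scale, edgeR recovered 100% with 3 false calls. In the data 46.4% of genes tested were called and replicate 1 of each group stood apart. The simulation had neither feature, so its rates need not hold for these data.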

Additional observations from a re-analysis of the deposited data

How the results depend on the processing

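Of the 34 HOX members called, 27 kept their call and direction in each of the 15 alternative settings that tested them, and 7 lost it in at least 1, HOXA-AS2, HOXB6, HOXC4, HOXC5, HOXC6 and HOXC8 among them. HOXB4 was called under library size scaling and without Control sh replicate 3 or VprBP sh replicate 1, and HOXA-AS3 under library size scaling and without VprBP sh replicate 1. Scaling moved the median log2 difference of all genes from 0.08 to -0.01 (TMM), -0.04 (DESeq2) and 0.29 (library size). A sign turned for HOTAIRM1, at 0.069, and HOXB2, at 0.015, under library size scaling. Leaving out 1 sample moved HOXB2 between -0.35 and 0.00355, the latter without VprBP sh replicate 1. Requiring 10 or more counts in each sample removes genes at 0 in a group. This left calls in 9 of 19 coding genes tested (4 higher, 5 lower), 2 of 5 noncoding (1 higher, 1 lower) and 3 of 9 flanking (1 lower). Over all genes 4690 of 13103 tested were then called. With no filter 10 of 16 flanking genes were called (8 lower), where 9575 of 21494 genes were called. With the main filter 21 of 42 genes tested within 500 kb were called. Cofactor calls fell from 3 to 1 under TMM, DESeq2, the test against 2-fold and without Control sh replicate 2, with a range of 1 to 3 when each sample was left out. Coding calls then ranged from 25 to 28. DCAF1 missed the threshold on p under library size scaling (log2 difference -0.37, adjusted p = 0.0851), with replicates 2 and 3 summed (-0.46, adjusted p = 0.0839) and in the test against 2-fold (-0.58). Under upper quartile, TMM and DESeq2 factors the summed log2 differences, -0.07, -0.38 and 1.89 by library size, became -0.29, -0.38 and -0.41 for HOXA, -0.60, -0.69 and -0.72 for HOXB, and 1.68, 1.58 and 1.56 for HOXC. Same-numbered samples of the 2 groups had deviations that correlated at -0.145, -0.0293 and -0.106, so the numbers do not pair them; with the replicate block 26 coding genes were called (8 higher, 18 lower) instead of 27. The filter, and the counts of 0 to 2 in a group, limit what depth can show.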
